A study of Rhipicephalus microplus with 8 samples.

Results

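Feeding larvae and feeding nymphs of the cattle tick Rhipicephalus microplus are described here against a sample group that the authors coded G, across every probe for which both comparisons were deposited. Of 13459 probes listed, 10695 had a value for larvae against G and for G against nymphs, and these are the members. The sign of the second table was reversed, so that every difference reads stage minus G and a positive value means a higher level in the stage. The labels do not spell out the code G. The series' design text speaks of tissues collected on day 20 after infestation and compared with a reference pool, and no label ties G to one of them.

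The stages were whole ticks of mixed sex of the Mozambique strain, fed on Holstein-Friesian cattle. Larvae were collected on day 4 and nymphs on day 7 after infestation. Each stage had 2 biological replicates with 2 technical arrays each, 8 arrays in all, with tick RNA in Cy5 and the pool in Cy3 on every array. The pool mixed whole ticks of days 4, 5, 7, 13 and 15 with tissues of adult females of day 20, so it holds RNA of the same stages and ages it is compared with. Arrays of G are not analysed here, and every value against G is the authors' own, with no replicate spread of G. If G is a single tissue, whole bodies are set against a part of an older animal, and stage, age and tissue content cannot be told apart. A lower level in such bulk RNA can mean fewer cells of a type or less RNA per cell, and these cannot be told apart either.

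The cattle tick is a one-host tick: larvae attach to an animal, feed on its blood, moult into nymphs and later into adults without leaving it. Each immature stage takes up blood, digests it within gut cells, secretes saliva into the skin of the host and builds a new cuticle before the moult. RNA of a whole larva or nymph therefore mixes gut, salivary gland, cuticle, muscle and nervous tissue. Adult females later turn most of the blood meal into eggs.

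The probes are named by contig or by expressed sequence tag, and the files pair none of these names with a gene. None of the probe names matched the 75107 genes of the reference gene table for the USDA_Rmic assembly (0 matches), so probes are reported by name and no function, sequence or position is given. At most 2 probes higher and 2 lower are named for each pattern, taken from those with all 8 arrays used by the authors. They were chosen for the size of their difference on these same values, so their fold changes describe the extremes of a pattern and are no independent evidence for it.

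Among probes with a call against G, the 2 largest patterns were shared by larvae and nymphs. In the authors' deposited tables, 1875 probes were higher in both stages than in G and 2382 were lower in both, which is 17.5% and 22.3% of the members. A call here is an authors' adjusted p under 0.05, which may count technical repeats like biological replicates. By the same tables, 60.1% of all members were called in larvae, 28.2% higher and 31.9% lower than G. In nymphs 56.1% were called, 25.7% higher and 30.3% lower. Both comparisons use the same arrays of G, so a high or low reading of G on those arrays enters both counts, and no chance level was set for the shared counts. The other members fell into 4 patterns with a call in 1 stage, 2 patterns with opposite calls, and 2737 probes (25.6%) with a call in neither stage.

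**Figure D1:**
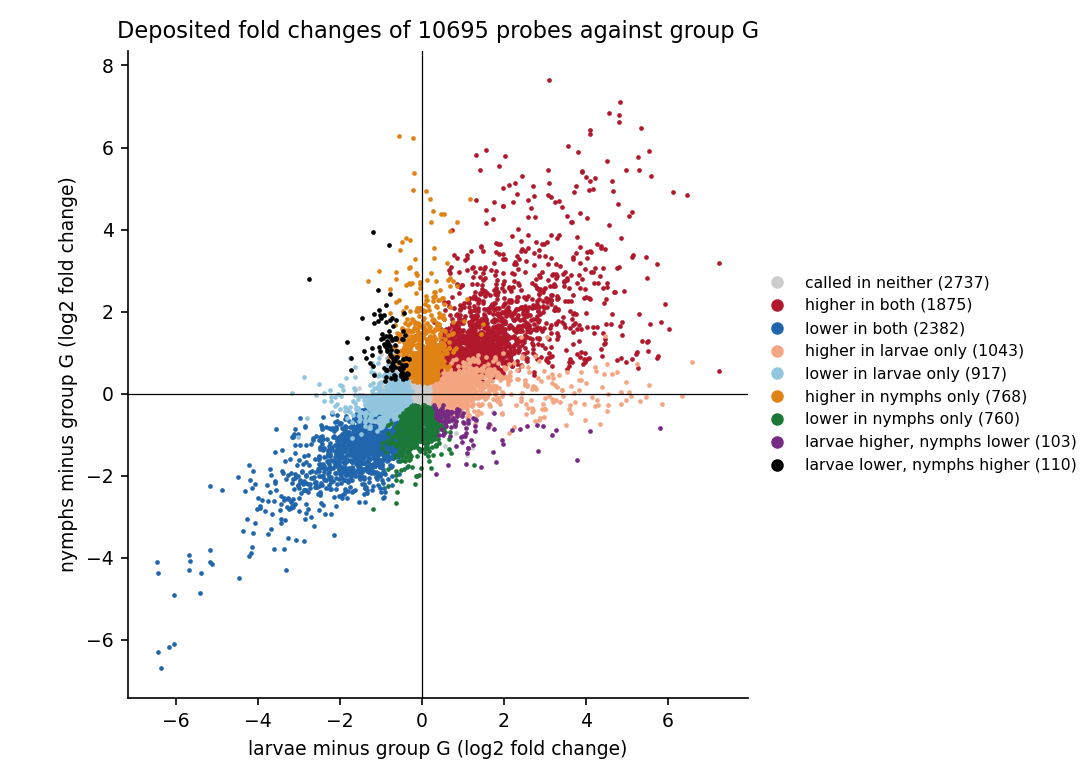
Log2 fold change of larvae minus group G (x axis) and nymphs minus group G (y axis) from the authors' deposited tables, 1 point for each of 10695 probes, coloured by which of the 2 comparisons passed the authors' adjusted p. The 1875 probes higher and 2382 lower in both stages lie in the upper right and lower left. The 213 probes with opposite calls lie in the other 2 corners, and both axes share the arrays of G.

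Small differences were more often toward G and large ones more often toward the ticks. Counting called probes of any size, the shared set held more lower than higher probes. At least 2-fold in both stages, 920 probes were higher and 823 were lower in the authors' deposited tables. In single stages, 17.1% of all members were called at least 2-fold higher and 13.1% lower in larvae, and 13.2% and 12.2% in nymphs. Shared probes numbered 251 higher against 150 lower at 4-fold, 79 against 33 at 8-fold, and 27 against 14 at 16-fold. At 32-fold, 5 probes were higher and 4 lower. Within single stages the authors' deposited tables placed 296 probes of larvae 8-fold or more above G and 105 as far below it. For nymphs these counts were 178 and 38. Nymphs had 4 probes at least 32-fold below G, while 38 lay at least 32-fold above it. The median difference over all members was -0.09 log2 in larvae and -0.05 in nymphs, and setting both medians to 0 changed the shared 2-fold counts to 993 higher and 714 lower.

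**Figure D2:**
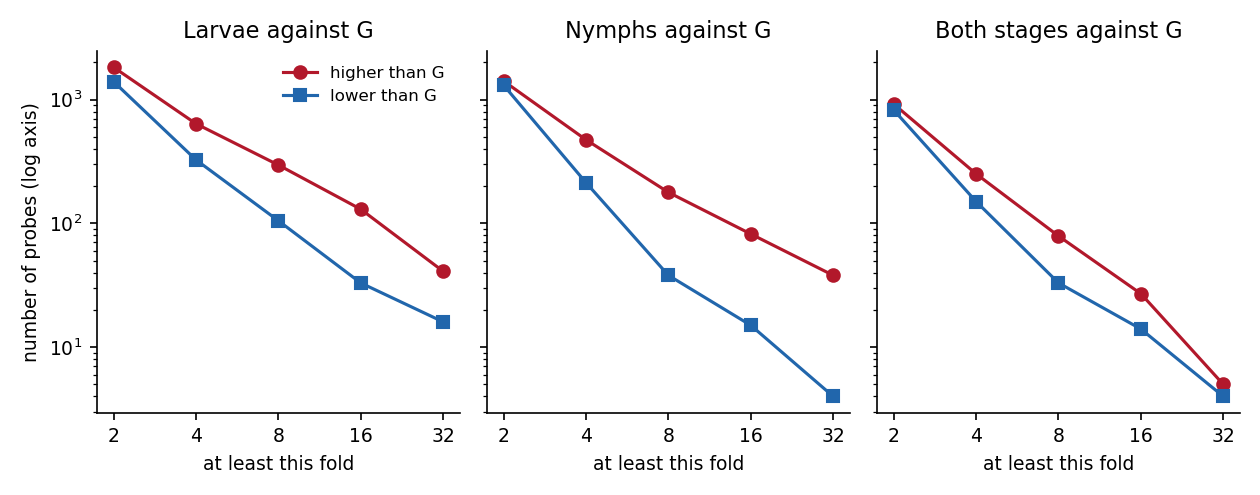
Number of probes (log axis) past the authors' adjusted p and at least the given fold from group G, for larvae, nymphs and both stages at once. Circles stand for probes higher than G and squares for probes lower than G. In each panel the higher probes outnumber the lower ones from 2-fold upward, in nymphs by 1411 against 1306 at 2-fold and 38 against 4 at 32-fold.

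Calls reached down to small differences. The smallest called difference was 0.24 log2 in larvae and 0.25 in nymphs in the authors' deposited tables, and the median called difference was 1.00 and 0.93. The largest difference without a call was 1.74 in larvae and 1.69 in nymphs. Among the 2737 probes with a call in neither stage, 2694 lay within 2-fold of G in both stages and 2351 within 1.5-fold, which does not show that their levels were equal.

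The level of G relative to the pool can be derived for the 10675 probes that were joined to the value table. It is the mean of the larva arrays the authors used minus their larvae against G fold change. It has no spread of its own and assumes that the arrays of G carried the same pool. Over these probes the implied level of G had a median of 0.03 log2, with quartiles of -0.60 and 0.51. Groups O and S, coded in the same way, had implied medians of 0.01 and -0.01, and larvae and nymphs had medians of 0.04 and -0.05.

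In the probes at least 2-fold higher in both stages, G lay farther below the pool than the ticks lay above it. G enters both differences on which these probes were chosen, so the choice itself favours a low level of G. Over 919 joined probes the median level was 0.61 log2 in larvae and 0.42 in nymphs, against -1.48 in G. Groups O and S were not used to choose these probes. Their medians were -1.38 and -0.42, so O stood nearly as low as G while S stood between G and the stages. The 79 probes at least 8-fold higher had medians of 1.13 in larvae, 1.63 in nymphs, -3.07 in G, -3.17 in O and -1.03 in S, again with G and O low together. Differences between G, O and S were not tested, since no table compares them.

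The probes at least 2-fold lower in both stages looked different. Over 823 joined probes G stood at a median of 1.15 log2 above the pool, while larvae stood at -0.65 and nymphs at -0.46. O and S were near the pool, at 0.13 and -0.11. Among the 33 probes at least 8-fold lower, G reached 2.65 and all other groups were below the pool. Their medians were -2.34 in larvae, -1.36 in nymphs, -2.67 in O and -1.01 in S. By their medians, the most extreme probes of this pattern were thus high in G alone among the 5 groups, without a test. That G lay above both stages was set by the choice of probes, which O and S did not enter. Choosing probes for a high G also favours G over O and S. The pool holds RNA of the stages, so levels relative to it are not fully free of the choice either. Medians do not show this order for each probe.

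**Figure D3:**
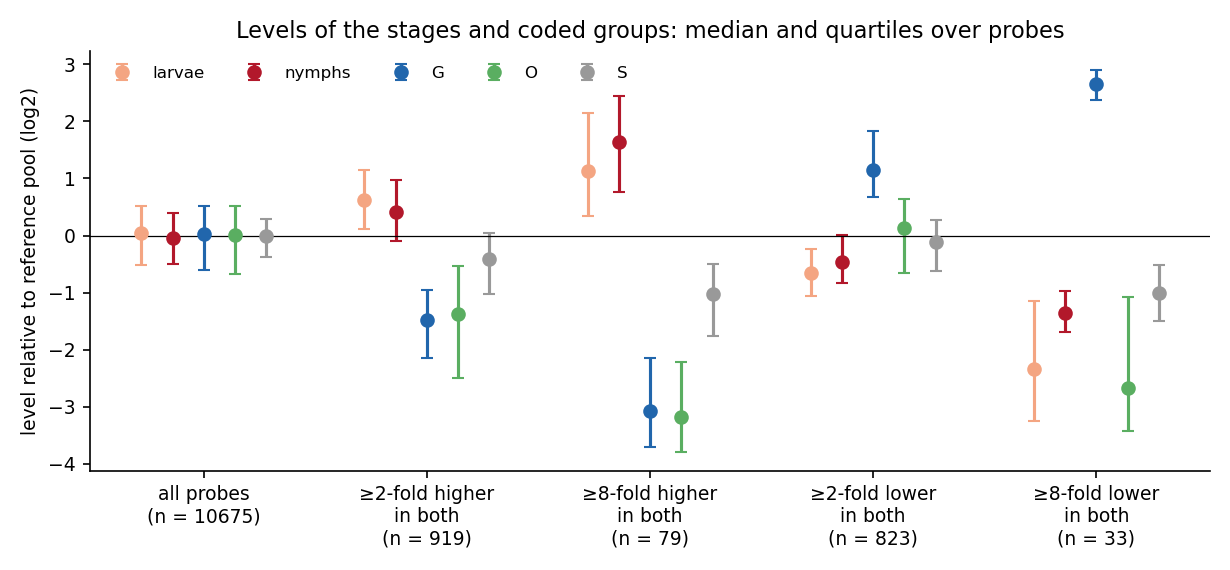
Log2 level relative to the reference pool in larvae, nymphs and the groups G, O and S, as the median (points) and quartiles (bars) over the probes of each set, with the number of probes below. Levels of G, O and S are derived from the authors' fold changes. Every set except that of all probes was chosen on the differences of both stages from G. In the set at least 8-fold lower in both stages, G lies at 2.65 and every other group below 0, while in the sets higher in both stages G and O lie low together.

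Contig1924 and Contig6578 were the probes named for a shared higher level. Larva arrays of Contig1924 read 3.31 and 3.13 in replicate 1 and 2.72 and 3.00 in replicate 2, as log2 ratio to the pool. Its nymph arrays read 2.79 and 2.83, then 2.83 and 2.62. All 8 arrays lay within 1 narrow band, and the implied level of G was -2.55, far below every array. The authors' deposited tables put Contig1924 at 48.1-fold above G in larvae and 39.8-fold above G in nymphs (adjusted p = 1.6e-14 and 4.33e-14). O and S stood at -3.34 and -2.15, so this probe was low in all 3 coded groups.

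Contig6578 read 0.79 and 0.79 in larva replicate 1 and 0.68 and 0.62 in replicate 2. Its nymph arrays read 0.78 and 1.37 in replicate 1 and 1.27 and 1.31 in replicate 2. The ticks were only somewhat above the pool, and G stood far below it at -4.26. By the authors' deposited tables the difference was 31.6-fold in larvae and 43.5-fold in nymphs (adjusted p = 9.59e-09 and 4.45e-09). O stood at -3.76 and S at -0.29, where the authors' deposited tables gave log2 differences of 1.01 for larvae and 1.47 for nymphs minus S. The ticks thus stood much closer to S than to G or O for this probe.

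CV443795 and Contig4527 were the probes named for a shared lower level. CV443795 read -4.42 and -4.59 in larva replicate 1 and -3.82 and -4.07 in replicate 2. In nymphs it read -4.26 and -4.45, then -3.95 and -3.79. Every array lay far below the pool and the stages overlapped, while G stood at 2.19, O at -1.07 and S at -1.23. In the authors' deposited tables this made it 85.4-fold lower in larvae and 79.1-fold lower in nymphs than in G (adjusted p = 5.43e-13 and 1.69e-12).

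Contig4527 read -4.77 and -4.32 in larva replicate 1, -3.47 and -3.35 in larva replicate 2, -3.54 and -4.07 in nymph replicate 1 and -4.08 and -4.28 in nymph replicate 2. The larva replicates lay on either side of the nymph arrays. G stood at 2.17, and the authors' deposited tables gave 71.2-fold and 71.8-fold lower levels in larvae and nymphs (adjusted p = 1.84e-09 and 2.93e-09). Against O the authors' deposited tables gave log2 differences of only -0.06 and -0.08, with adjusted p of 0.837 and 0.802. Contig4527 was thus as low in O, at -3.91, as in the ticks, while S stood between at -1.47.

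The shared 2-fold differences were seen in each biological replicate of the stages for about 3 in 4 probes. Each replicate was set alone against the implied level of G, for probes with an array of every replicate. Of 850 such probes higher in both stages, 639 (75.2%) were at least 2-fold higher in all 4 replicates, and 849 lay above G in all 4. Of 780 lower in both, 599 (76.8%) were at least 2-fold lower in all 4 replicates, and 780 lay below G in all 4. These probes were chosen on the means of the same arrays, so this describes how evenly the replicates carry the difference, and the spread of G is not part of it.

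Sharing a direction against G did not mean equal levels in both stages. The stages were set against each other with limma on biological replicates, technical repeats averaged, over 9556 probes that kept every replicate. In that fit 11.0% of the probes passed an adjusted p of 0.05, of which larvae were the higher stage in 5.37% and nymphs in 5.61% of those fitted. Out of the 1752 fitted probes higher in both stages than in G, 193 were also higher in larvae than in nymphs and 110 higher in nymphs than in larvae (limma). Among the 193, the median difference from G was 3.24 log2 in larvae and 1.20 in nymphs. Among the 110 it was 1.50 and 3.39.

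Below G the stages also differed in some probes. Of 2297 fitted probes lower in both stages, 102 (4.44%) were lower still in larvae and 12 (0.522%) lower still in nymphs (limma), against 5.61% and 5.37% over all fitted probes. In the authors' deposited table, 549 and 267 of the 2382 probes were called lower in larvae and lower in nymphs. The 102 had median differences from G of -2.84 in larvae and -1.21 in nymphs, and the 12 had -0.84 and -2.02. These counts share the larva and nymph arrays with the choice of the pattern, and whether the split differs from that above G was not tested.

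A call in 1 stage alone does not show that the stages differ, so each such probe was held to the direct comparison of larvae with nymphs. In the authors' deposited tables, 1043 probes were called higher in larvae alone, 917 lower in larvae alone, 768 higher in nymphs alone and 760 lower in nymphs alone. The authors' own larvae against nymph table, in which 44.2% of all members were called, called 741, 560, 593 and 482 of these between the stages, all in the matching direction. The fit on biological replicates called 186 of 908 fitted, 76 of 853, 170 of 712 and 53 of 652 (limma). As shares of those fitted these were 20.5%, 8.91%, 23.9% and 8.13%. Each counts 1 direction only, in the order larvae higher, nymphs higher, nymphs higher and larvae higher. Over all fitted probes larvae were the higher stage in 5.37% and nymphs in 5.61%, together 11.0%. The pattern itself favours probes that differ between the stages, so these shares are read as descriptions. The counts depended strongly on which replicates were kept. They fell far without either larva replicate, rose far without nymph replicate 2 and changed little without nymph replicate 1 (limma).

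**Figure D4:**
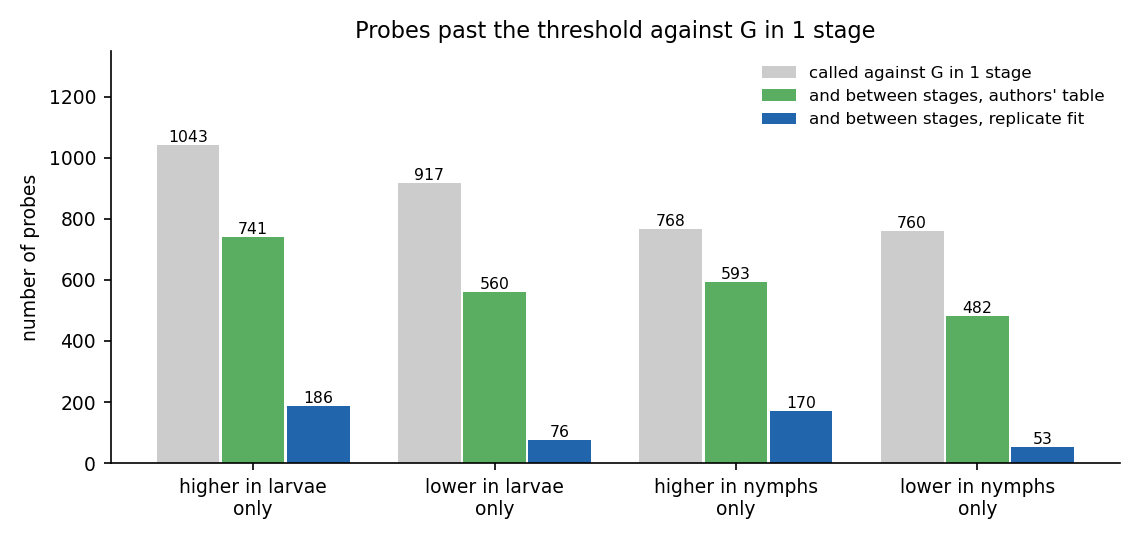
Number of probes past the authors' adjusted p against group G in 1 stage and not in the other, for the 4 patterns on the x axis. Grey bars give all such probes, green bars those also called between the stages in the authors' deposited table, and blue bars those called between the stages in the fit on biological replicates. The blue bars, at 186, 76, 170 and 53, are well under the grey ones.

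The deposited calls between the stages outnumbered those of the replicate fit. The authors' larvae against nymph fold changes are plain means over arrays, technical repeats counted like biological replicates. Of the 9556 fitted probes the authors' deposited table called 4384 and the replicate fit called 1049, 1048 of them shared. If the p-values against G treat technical repeats in the same way, they measure the spread between arrays rather than that between the 2 biological replicates. The labels do not say whether the biological replicates came from separate animals, so p-values measure only the spread between these samples.

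The 186 probes higher than G in larvae and not called in nymphs had a median of 1.88 log2 above G in larvae, and 47 were at least 8-fold above it. In nymphs their median was -0.02, with a range from -0.76 to 0.79. Contig5919 headed the set. It read 3.66 and 3.52 in larva replicate 1 and 2.64 and 2.91 in replicate 2, against -2.39 and -1.70 in nymph replicate 1 and -2.77 and -2.33 in nymph replicate 2. No larva array came near a nymph array, and the nymphs lay around the implied level of G, -2.13. It was 39.8-fold above G in larvae (adjusted p = 2.9e-11) and 1.12-fold below G in nymphs (adjusted p = 0.664) in the authors' deposited tables. Between the stages the log2 difference was 5.48 (SE 0.35, limma, adjusted p = 0.0011).

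Contig4541 followed, with larva arrays at 3.18, 3.34, 2.52 and 2.56. Its nymph replicates disagreed, at -0.66 and -0.50 in replicate 1 and -3.11 and -2.24 in replicate 2. The implied level of G, -2.34, lay inside the range of the second nymph replicate and below the first. The authors' deposited tables gave 37.8-fold above G in larvae (adjusted p = 1.54e-09) and 1.64-fold above G in nymphs (adjusted p = 0.148). The difference between stages was 4.53 log2 (SE 0.67, limma, adjusted p = 0.0122), and leaving out larva replicate 1 or 2 gave an adjusted p of 0.119 or 0.0890 (limma).

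The 76 probes lower than G in larvae and not called in nymphs had a median of -1.40 in larvae, and 2 of them were at least 8-fold below G there. In nymphs their median was -0.04, with a range from -1.06 to 0.87. Contig2580 read -1.39 and -1.55 in larva replicate 1 and -1.02 and -1.21 in replicate 2. Its nymph arrays read 2.18 and 1.65, then 1.97 and 1.76. Nymphs and G stood at the same height, 1.89 and 1.87, while O stood at -3.65 and S at -2.45. The authors' deposited tables put larvae 8.96-fold below G (adjusted p = 2.43e-11) and nymphs 1.01-fold above it (adjusted p = 0.934). The stages differed by -3.18 log2 (SE 0.23, limma, adjusted p = 0.00164).

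Contig1573 had the same shape. Its larva arrays read -3.00 and -3.00 in replicate 1 and -1.77 and -2.16 in replicate 2, and its nymph arrays 1.17, 0.51, 0.72 and 0.78. G stood at 0.39, just below the nymph arrays, with O at -4.40 and S at -2.42. Larvae were 7.33-fold below G (adjusted p = 1.08e-06) and nymphs 1.32-fold above it (adjusted p = 0.359) in the authors' deposited tables, and the stages differed by -3.28 log2 (SE 0.37, limma, adjusted p = 0.00525). In both probes, nymphs and G stood close together and the other coded groups were low.

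The 170 probes higher than G in nymphs and not called in larvae had a median of 1.76 in nymphs, and 22 were at least 8-fold above G there. In larvae their median was -0.12, with a range from -1.30 to 1.17. Contig571 read -2.91 and -2.86 in larva replicate 1 and -2.56 and -2.41 in replicate 2, against 4.24 and 3.79 in nymph replicate 1 and 4.53 and 4.11 in nymph replicate 2. All larva arrays lay somewhat below the implied level of G, -2.12. The authors' deposited tables gave nymphs 78.0-fold above G (adjusted p = 1.24e-12) and larvae 1.48-fold below it (adjusted p = 0.0755). It had a log2 difference between stages of -6.85 (SE 0.25, limma, adjusted p = 0.000825).

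CK179603 was the other probe named for nymphs. Larva arrays read -0.51, -0.48, -1.21 and -1.01, and nymph arrays 3.90, 3.94, 4.25 and 3.98. G stood at -0.91, within the larva arrays, and S was higher at 1.33. Nymphs were 30.5-fold above G (adjusted p = 8.06e-09) and larvae 1.08-fold above it (adjusted p = 0.837) by the authors' deposited tables. The difference between stages was -4.82 log2 (SE 0.28, limma, adjusted p = 0.00103).

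The 53 probes lower than G in nymphs and not called in larvae had a median of -1.11 in nymphs. None was 8-fold below G there (0 probes), and 35 were at least 2-fold below it. In larvae their median was 0.14, with a range from -0.62 to 0.72. Contig7875 read 0.22 and -0.02 in larva replicate 1, 1.56 and 1.42 in larva replicate 2, -0.45 and -1.78 in nymph replicate 1 and -1.39 and -1.41 in nymph replicate 2. The larva replicates were far apart, with only the second close to G at 1.41. The authors' deposited tables gave nymphs 6.36-fold below G (adjusted p = 3.98e-07) and larvae 1.53-fold below it (adjusted p = 0.0871). Its difference between stages of 2.05 log2 (SE 0.46, limma, adjusted p = 0.0430) had an adjusted p of 0.167 without larva replicate 2, 0.0612 without nymph replicate 1 and 0.0556 with each array centred on its median (limma).

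Contig7498 read 0.76, 0.62, 0.29 and 0.95 on the larva arrays and -0.58, -0.94, -0.45 and -0.17 on the nymph arrays. G stood at 0.95, level with the highest larva array. Nymphs were 2.80-fold below G (adjusted p = 1.05e-06) and larvae 1.23-fold below it (adjusted p = 0.171) in the authors' deposited tables. The stages differed by 1.19 log2 (SE 0.25, limma, adjusted p = 0.0344), with an adjusted p of 0.242 without larva replicate 1, 0.223 without larva replicate 2 and 0.0518 without nymph replicate 1 (limma).

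**Figure D5:**
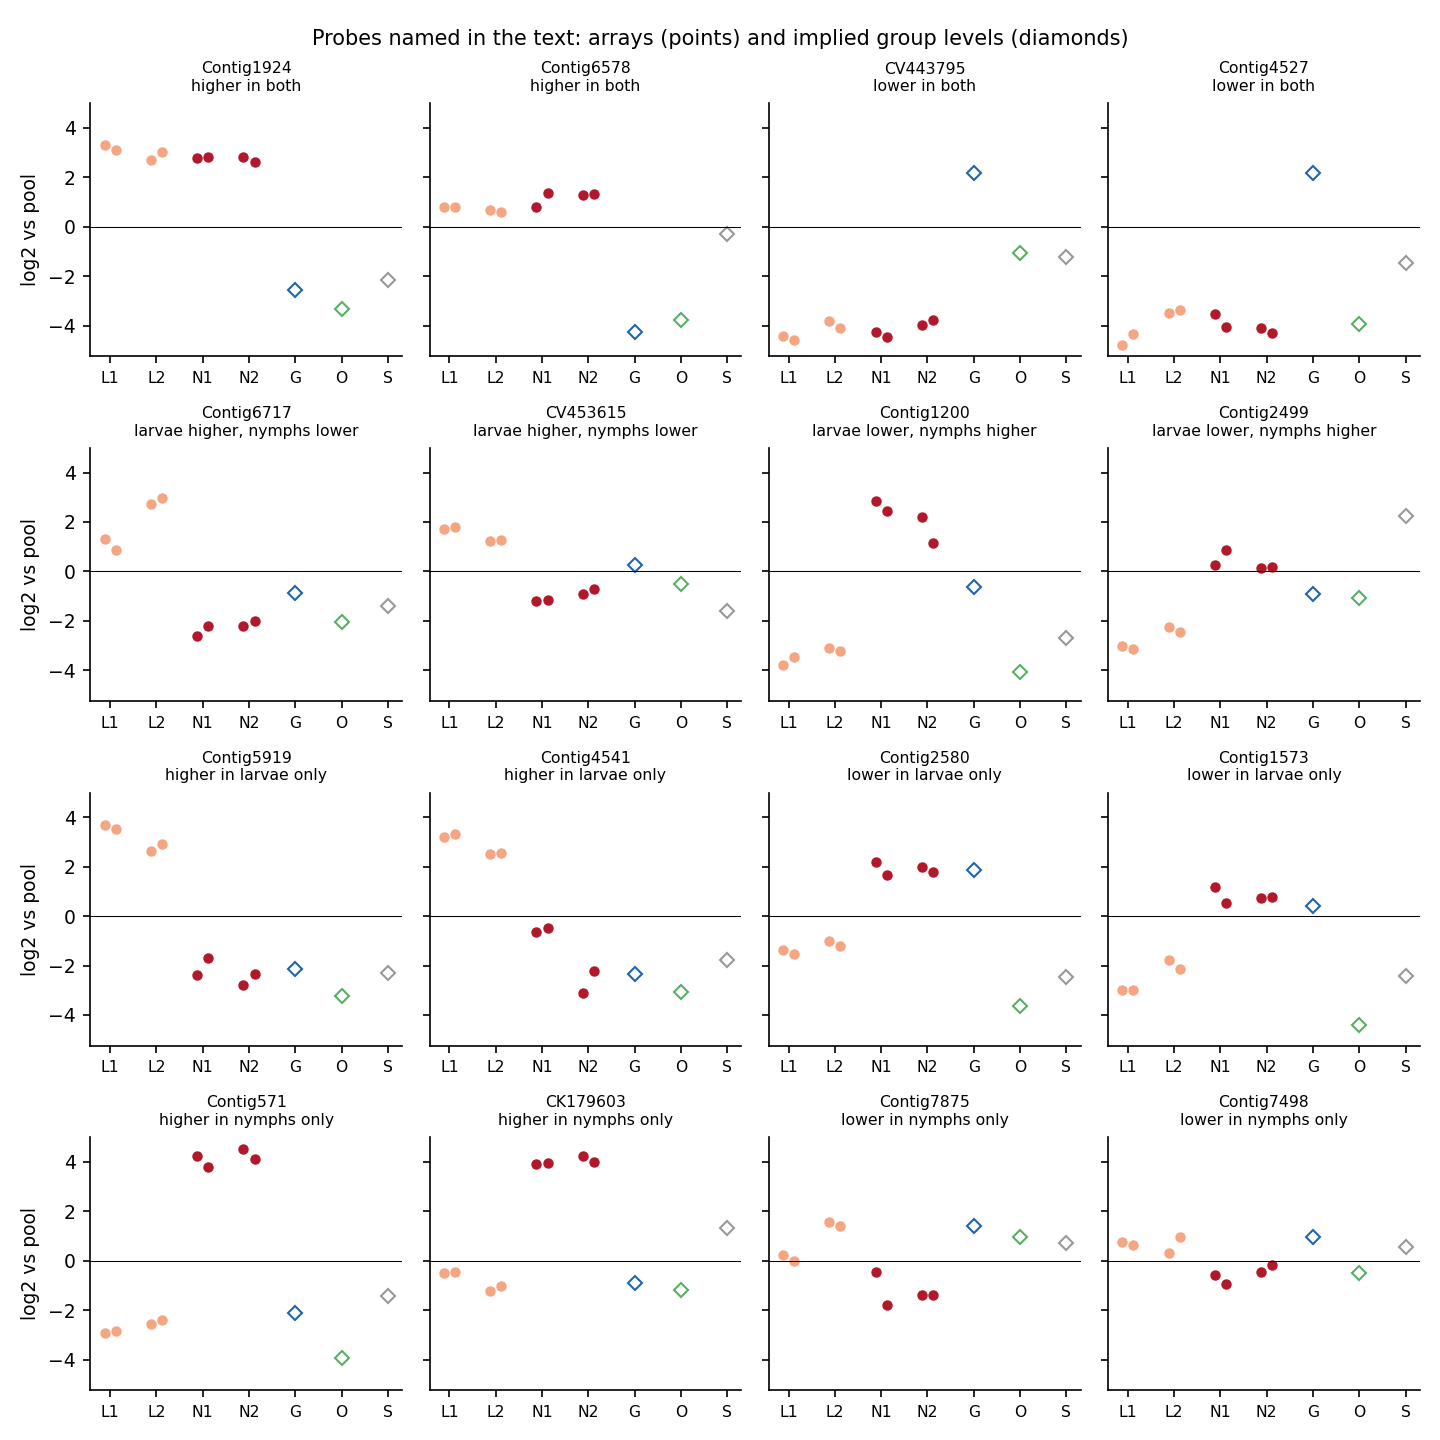
Log2 ratio to the reference pool of the 16 probes named by pattern. Points are the 2 technical arrays of each larva replicate (L1, L2) and nymph replicate (N1, N2), and open diamonds are the levels of groups G, O and S implied by the authors' fold changes, without a spread. Shared patterns have G far from all 8 arrays, patterns of 1 stage have G nearer to the arrays of the other stage, and opposite patterns have G between the stages.

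In 213 probes the stages lay on opposite sides of G in the authors' deposited tables, 103 with larvae above and nymphs below and 110 the other way round. All of these had a called difference between the stages in the authors' deposited table, against 44.2% of all members. The replicate fit called 66 of 89 fitted probes higher in larvae and 70 of 94 higher in nymphs (limma). Over all fitted probes these shares were 5.37% and 5.61%. With opposite calls, the difference between the stages adds up both differences from G, so these counts largely follow from the pattern. At the 2-fold mark, 15 of the 103 and 16 of the 110 were at least 2-fold from G in both stages.

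Contig6717 had larvae above G and nymphs below it. Its larva arrays read 1.31 and 0.89 in replicate 1 and 2.72 and 2.98 in replicate 2, and its nymph arrays -2.62, -2.20, -2.23 and -1.99. G stood between at -0.85. The authors' deposited tables gave 7.08-fold above G in larvae (adjusted p = 1.61e-06) and 2.65-fold below it in nymphs (adjusted p = 0.00252), and the stages differed by 4.23 log2 (SE 0.55, limma, adjusted p = 0.00813). Against O and S it was called higher in larvae and not called in nymphs in the authors' deposited tables.

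CV453615 was nearly symmetric about G. Larva arrays read 1.74, 1.79, 1.22 and 1.28, nymph arrays -1.19, -1.17, -0.93 and -0.72, and G stood at 0.25. Both sides came to 2.38-fold in the authors' deposited tables (adjusted p = 5.53e-07 in larvae and 7.33e-07 in nymphs). The stages differed by 2.51 log2 (SE 0.27, limma, adjusted p = 0.00521), with an adjusted p of 0.0677 without larva replicate 1 (limma).

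Contig1200 was the widest of the reverse kind. It read -3.77 and -3.47 in larva replicate 1 and -3.10 and -3.21 in replicate 2, against 2.85 and 2.46 in nymph replicate 1 and 2.22 and 1.14 in nymph replicate 2. G stood at -0.63, about midway. In the authors' deposited tables larvae were 6.75-fold below G and nymphs 6.97-fold above it (adjusted p = 8.21e-06 and 8.43e-06), while larvae were not called against O or S (adjusted p = 0.123 and 0.238). The difference between stages was -5.56 log2 (SE 0.37, limma, adjusted p = 0.00129).

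Contig2499 read -3.03 and -3.15 in larva replicate 1, -2.25 and -2.44 in larva replicate 2, 0.27 and 0.85 in nymph replicate 1 and 0.14 and 0.19 in nymph replicate 2. G stood at -0.91 and O at -1.09, between the stages, whereas S stood above both at 2.26. Larvae were 3.51-fold below G and nymphs 2.41-fold above it (adjusted p = 3.33e-05 and 0.00132) in the authors' deposited tables, and the stages differed by -3.08 log2 (SE 0.32, limma, adjusted p = 0.00441).

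Of the 4 contigs whose names carry a gene word, 2 had values against G. Contig2438_TBP_TATA is named after the TATA-binding protein, which helps to place RNA polymerases at promoters. Its larva level was 0.11 ± 0.12 and its nymph level -0.57 ± 0.03 (SD, n = 2), with G between at -0.11. The authors' deposited tables gave a log2 difference from G of 0.22 in larvae (adjusted p = 0.134) and -0.45 in nymphs (adjusted p = 0.00771). The difference between stages of 0.68 did not pass the replicate fit (SE 0.21, limma, adjusted p = 0.0969), so a call in nymphs alone is not shown to be a stage difference there. It passed with a random block for the biological replicate (limma, adjusted p = 0.0454), with all arrays as independent (limma, adjusted p = 0.00936) and in the authors' deposited table (adjusted p = 0.000564).

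Contig803_RiboL4 carries the name of ribosomal protein L4, a part of the large ribosomal subunit. Its level was -0.26 ± 0.10 in larvae, -0.04 ± 0.12 in nymphs (SD, n = 2 in each) and an implied 0.15 in G. Larvae lay -0.42 log2 from G (adjusted p = 0.00277) and nymphs -0.19 (adjusted p = 0.151) in the authors' deposited tables. The stages differed by -0.23, which did not pass (SE 0.22, limma, adjusted p = 0.501). All group levels of both contigs lay within 1 log2 unit of the pool.

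Probes of 1 contig number did not always go the same way. For 76 contig numbers the array holds a probe named A and a probe named B, and both had values in 58. Where both probes were called against G in larvae, 13 of 27 pairs had the same direction, and in nymphs 10 of 23 did, in the authors' deposited tables. The median absolute difference between A and B was 1.06 log2 in larvae and 1.05 in nymphs. The same pattern of calls was seen in 11 of the 58 pairs. The files do not say what the letters mean, so a probe of such a pair does not stand for its contig.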

How the data were processed

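Per the labels, the value table the authors deposited holds log2 ratios of sample (Cy5) over reference pool (Cy3), with 0 values missing. Per the file headers, each comparison table the authors deposited gives a log2 fold change, the same as a signed linear fold (a score, negative where the first group is lower) and an adjusted p-value. The submitters' processing notes name limma. How background and normalisation were handled, and which spots were filtered, is not given in the sources used here. Signal over background is therefore unknown, and the small number of arrays limits the precision.

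The tables share no identifier. A probe was joined to the feature whose array means gave its deposited log2 fold change between the stages within 1.2e-09, using all or some arrays. This joined 10675 of 10695 probes, 6516 with all 8 arrays, and a few of the others may be chance matches. Arrays not needed for a match were taken as left out by the authors. The deposited fold changes were additive to within 4.7e-08, and levels of G, O and S relative to the pool were derived from them.

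Technical repeats were averaged, and larvae were compared with nymphs by lmFit and eBayes (limma 3.58.1, R 4.3.3) with Benjamini-Hochberg adjustment over 9556 probes. The other 1119 joined probes lacked a replicate. With 2 replicates a stage, an exact two-sided permutation test has a smallest p of 0.333. On simulated data the fit missed all changes of 2-fold and most of 4-fold. The simulated noise was drawn from the noisier stage of each probe, and only 200 of 9556 probes were changed. The simulation may therefore understate what the fit can find. In the data the smallest difference that passed was 0.88 log2 (limma). A probe that did not pass may still differ between the stages. Named probes are the 2 most extreme each way per pattern with all 8 arrays used, those of 1 stage also past the fit with no overlap between stages, plus contigs with a gene word in the name. Members, patterns and rules were chosen with earlier results of these data known. Cell type markers could not be used, since no probe is paired with a gene. Alternatives were stricter thresholds, centring, quantile normalisation, other treatment of technical repeats, a replicate block and leaving out each replicate.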

Additional observations from a re-analysis of the deposited data

Results flagged for a closer look

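The following named probes differed from G by unequal amounts in the stages, by the limma fit of larvae against nymphs that tests this difference itself. Each value is larvae minus G less nymphs minus G, on the log2 scale, with 2 biological replicates a stage. For the probes on opposite sides of G the values were 4.23 for Contig6717, 2.51 for CV453615, -5.56 for Contig1200 and -3.08 for Contig2499. For those called in larvae alone they were 5.48 for Contig5919, 4.53 for Contig4541, -3.18 for Contig2580 and -3.28 for Contig1573. For those called in nymphs alone they were -6.85 for Contig571, -4.82 for CK179603, 2.05 for Contig7875 and 1.19 for Contig7498. The adjusted p of these probes ran from 0.000825 to 0.0430 (limma). All were named for passing this fit or for opposite calls, so the list is no measure of how common such probes are.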

How the results depend on the processing

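The base of probes with an array of every replicate was chosen after seeing the data. The shared counts, 1875 higher and 2382 lower, became 920 and 823 at 2-fold and 251 and 150 at 4-fold. The shared 2-fold counts moved by less than 1.5 times under every alternative run. With a replicate left out they lay between 806 and 920 higher and 749 and 805 lower. The same probes gave 850 higher and 780 lower with no replicate left out. All these runs kept the authors' calls, and those leaving out arrays also kept the implied level of G. Only the stage means could change there, so part of this steadiness is built in.

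The counts called in 1 stage and between the stages were sensitive. The main total of 485 (186 higher in larvae, 76 lower in larvae, 170 higher in nymphs, 53 lower in nymphs) became 1708 (511, 415, 465, 317) with arrays as independent and 994 (323, 209, 304, 158) with a random block for the biological replicate. It became 818 (305, 131, 242, 140) over all features with no spot left out, 153 (70, 15, 66, 2) at an adjusted p under 0.01, and 2376 (741, 560, 593, 482) by the authors' deposited table. Leaving out 1 replicate gave between 85 and 1358 in all, 43 to 441 higher in larvae, 2 to 290 lower in larvae, 30 to 440 higher in nymphs and 0 to 187 lower in nymphs. The low ends came without larva replicate 1 (88 in all) or larva replicate 2 (85), the high end without nymph replicate 2 (1358). Without nymph replicate 1 the counts changed little. In these fits a stage left with 1 sample is taken to vary as the other stage does. Without larva replicate 2, 0 probes were lower in nymphs alone and between the stages in limma. The 136 opposite probes past the fit became 63 at an adjusted p under 0.01, 213 by the authors' deposited table and 188 over all features, and between 26 and 177 without 1 replicate. For these changes the cause was not tested.

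Numbers 1 and 2 are not tied across stages by the labels. The replicate number as a block gave 483 in all (183, 66, 189 and 45), and deviations of equal numbers correlated at r = -0.055. In 234 comparisons of a named probe with an alternative, 218 stayed on the same side of the threshold. No probe past the fit changed sign. CV443795 and Contig4527, with differences near 0 and no call in any alternative, did: CV443795 went from -0.11 to 0.16 with quantile normalisation, and Contig4527 from 0.01 to -0.56 without larva replicate 2.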

Other observations

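Kinds of probe names differed in how they stood to G, a split looked at after the values were seen and not tested. Probes named by contig were higher in both stages in 16.7% of 7616 and lower in both in 24.3% in the authors' deposited tables. For expressed sequence tags with the prefix CV the shares were 18.6% and 17.1% of 1415, and for the prefix CK 21.0% and 17.2% of 1056. For the prefix EW they were 15.2% and 21.6% of 171, so for calls of any size tags did not all lean the same way. At least 2-fold in both stages, EW had 9.94% higher and 7.02% lower. There it leaned like CV, with 8.76% and 4.88%, and CK, with 9.47% and 6.34%.

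The largest shares at least 2-fold higher in both stages than in G were in small groups of names, against 8.60% of all members. Of the 15 members with the prefix AA, 5 (33.3%) were so in the authors' deposited tables. Lower in both stages were 2 of the 15 at any size and 0 at least 2-fold. Of the 15 members whose names begin with the letters GO, 10 (66.7%) were so, and 0 were lower in both. Their differences from G ran from -0.86 to 4.03 log2 in larvae, with a median of 1.92, and from 0.19 to 2.54 in nymphs, with a median of 1.24. Relative to the pool, their medians were below 0 in every group, at -1.27 in larvae, -2.27 in nymphs, -3.68 in G, -4.95 in O and -1.08 in S.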
